A study of Mus musculus with 2 samples.

Results

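Nqo1, Hmox1, Gclc, Gclm, Gsr, Srxn1, Txnrd1, Akr1b8, Cbr3 and Osgin1 are target genes of the transcription factor NRF2 that act in quinone, heme, glutathione and thioredoxin metabolism. These 10 genes were chosen by symbol among the 26440 genes of the deposited tables, each was found under 1 RefSeq accession, and 10 of 10 passed the filter of 1 FPKM in either library. RNA from the livers of 11-day-old BALB/c mice had been sequenced in 1 wild-type library and in 1 library from animals labelled SRSF2-/-, a knockout that the series' design text limits to liver. SRSF2 is a serine/arginine-rich splicing factor. The sources used here give neither the driver of the deletion, nor the part of the gene removed, nor the number of animals in a library. Levels are FPKM, fragments scaled to transcript length and library size, and a range in parentheses after a ratio is its 95% interval by the exact Clopper-Pearson method, taken from the reads. Because each genotype had 1 library, no difference was tested against the spread between animals, and the intervals cover counting error only.

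NRF2, encoded by Nfe2l2, is held in the cytosol by KEAP1, which hands it to a CUL3 and RBX1 ubiquitin ligase for degradation. Electrophiles and oxidants modify KEAP1, and NRF2 then reaches the nucleus, pairs with a small MAF protein and binds antioxidant response elements, sites that the repressor BACH1 can also occupy. In liver its targets supply glutathione and reducing power, recycle thioredoxin and peroxiredoxin, degrade heme and detoxify quinones and reactive carbonyls.

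The promoters are shown first, because the results divide genes that share this regulator. The RefSeq promoter table (build GRCm38.p6, 250 bases before to 50 after a start) held 7 of the 10 genes in 9 windows, Txnrd1 having more than 1 start. Each window was searched on both strands for TGACNNNGC, the core of the antioxidant response element, and for TGANTCA, the site of AP-1 (dimers of FOS and JUN proteins). TGACNNNGC stood in 12.4% of all 32851 promoter windows and TGANTCA in 7.81%, and the matches overlapped in 0.454%. Among the 7 genes, 3 held the core (Srxn1, Gclm and Txnrd1), 2 held the AP-1 letters (Srxn1 and Osgin1), and 3 held neither (Nqo1, Akr1b8 and Cbr3). Txnrd1 held the core only in the window printed below, and not in its other windows. Counted by gene, 3781 of 27025 held TGACNNNGC in a window and 2425 held TGANTCA. Elements farther from the start lie outside these windows, so a window with no match describes these letters alone. The 250 bases before the start of 4 genes are printed 5′ to 3′ on the gene's strand, with both kinds of match in capitals. They cover chr2:152105274-152105523 (Srxn1), chr8:119436897-119437146 (Osgin1), chr10:82858956-82859205 (Txnrd1) and chr3:122245307-122245556 (Gclm), all on the plus strand.
Srxn1: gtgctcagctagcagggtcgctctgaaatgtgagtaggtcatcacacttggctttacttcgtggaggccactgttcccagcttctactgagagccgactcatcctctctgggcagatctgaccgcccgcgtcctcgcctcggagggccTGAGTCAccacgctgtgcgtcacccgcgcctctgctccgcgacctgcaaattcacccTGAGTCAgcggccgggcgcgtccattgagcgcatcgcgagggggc
Osgin1: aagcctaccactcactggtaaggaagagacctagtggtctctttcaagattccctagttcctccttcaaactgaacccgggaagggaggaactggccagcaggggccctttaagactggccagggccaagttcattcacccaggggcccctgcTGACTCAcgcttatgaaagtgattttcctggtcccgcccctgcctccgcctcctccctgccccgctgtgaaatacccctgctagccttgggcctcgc
Txnrd1: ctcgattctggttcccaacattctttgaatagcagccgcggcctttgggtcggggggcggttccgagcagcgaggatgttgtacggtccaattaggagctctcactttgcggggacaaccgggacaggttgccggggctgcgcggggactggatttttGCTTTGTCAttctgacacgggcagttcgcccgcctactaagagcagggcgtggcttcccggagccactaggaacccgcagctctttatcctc
Gclm: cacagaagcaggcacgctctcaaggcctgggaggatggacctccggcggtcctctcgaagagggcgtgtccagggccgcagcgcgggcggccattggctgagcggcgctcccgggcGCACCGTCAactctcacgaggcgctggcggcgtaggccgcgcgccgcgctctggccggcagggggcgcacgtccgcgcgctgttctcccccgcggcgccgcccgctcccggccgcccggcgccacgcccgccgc

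The AP-1 letters of Srxn1 lay 102 to 96 and 45 to 39 bases before its start, and those of Osgin1 lay 97 to 91 bases before. The core of Gclm lay 134 to 126 and that of Txnrd1 92 to 84 bases before the start, both on the minus strand. The core of Srxn1 lay just after the start, at chr2:152105542-152105570 with its flanks. The match nearest the start of Srxn1 and the match of Osgin1 can each be extended to the same 9 bases, TGAGTCAGC, read on the plus strand in Srxn1 and on the minus strand in Osgin1. These letters end in the GC of the response element and contain the AP-1 letters, and they were searched for after the windows had been seen. They stood in 0.414% of all promoter windows. The core of Srxn1, and then the 9-base matches at chr2:152105469-152105497 and chr8:119437038-119437066, are written on the plus strand with the match in capitals.
Srxn1 core: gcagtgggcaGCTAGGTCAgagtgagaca
Srxn1 shared 9 bases: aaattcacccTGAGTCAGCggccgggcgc
Osgin1 shared 9 bases: aggggcccctGCTGACTCAcgcttatgaa

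The libraries held 22407743 (wild type) and 22111605 (knockout) reads on annotated transcripts. Srsf2, the targeted gene, had 1998 and 832 reads, or 27.9 and 11.8 FPKM. Hepatocyte markers were abundant in both libraries, and the 20 most abundant genes took 37.5% (wild type) and 21.5% (knockout) of the reads. Genes with at least 1 FPKM in either library are called tested genes. Of these 12477 genes, 84.5% were higher in the knockout, and the median log2((knockout FPKM + 1) / (wild-type FPKM + 1)) over all of them was 0.55. Each list is therefore given as deposited and after subtraction of this median, called centring below. Paired values give the wild-type library first. The libraries also differed in sex-linked RNA: Xist stood at 27.4 and 0.0138 FPKM, and the Y-linked Ddx3y at 0 and 859 reads. Sex and genotype cannot be told apart here.

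Srxn1, Nqo1, Cbr3, Akr1b8, Hmox1, Osgin1, Gsr and Txnrd1 were higher in the knockout library, while Gclc and Gclm, the subunits of glutamate-cysteine ligase, stood at nearly equal levels. Of the 10 NRF2 targets, 8 were at least 2-fold higher in the knockout library and 0 lower, where 19.2% of all tested genes were at least 2-fold higher and 2.95% lower. With centring, 5 were higher and 0 lower, against 5.67% and 6.66% of all tested genes. Their median log2 ratio was 1.56, or 1.01 after centring. Summed over the 10 genes, the level came to 285.6 FPKM (wild type) and 795.97 FPKM (knockout), a 2.79-fold difference, and the genes took 0.0795% and 0.213% of the reads. The 2 genes that did not reach 2-fold were Gclc and Gclm. Among the 8, Cbr3 passed the filter through the knockout library alone and could only be higher there. The 10 genes were chosen with earlier results of these data known, so these counts are not independent evidence of a direction. In bulk liver RNA, more cells of a type and more RNA per cell cannot be told apart.

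**Figure D1:**
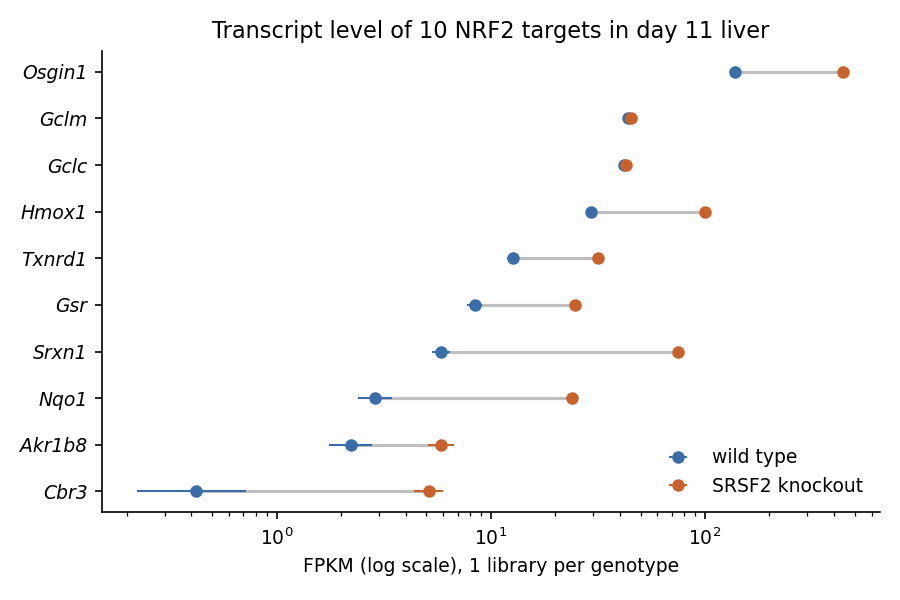
FPKM (log axis) of the 10 NRF2 targets in the wild-type (blue) and knockout (orange) library, ordered by the wild-type level. Points are 1 library each and bars are exact Poisson 95% intervals of the read count. Knockout points lie to the right for 8 genes, while those of Gclm and Gclc lie almost on the wild-type points.

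Glutathione enzymes went different ways. Gclc, the catalytic subunit of glutamate-cysteine ligase, the rate-limiting enzyme of glutathione synthesis, stood at 41.8 FPKM (wild type) and 42.5 FPKM (knockout). The ratio was 1.02 (0.973 to 1.06), on 3801 and 3822 reads. Gclm, the modifier subunit that raises the activity of the same enzyme, stood at 43.7 and 45.3 FPKM, a ratio of 1.04 (0.979 to 1.10). Both intervals contain a ratio of 1 and end well below 2, so depth does not limit this description. Reads of Gclm may be divided with other genes, as given below. The subunits stayed near 1 to 1 on the FPKM scale, with Gclm at 1.05 (wild type) and 1.06 (knockout) times the Gclc level. Both lay below the median of all genes, at -0.53 (Gclc) and -0.50 (Gclm) on the log2 scale after centring, and 16.4% and 17.3% of the tested genes had a lower ratio. Their standing therefore depended on the scale. As deposited, the 2 genes showed no direction beyond counting error. They were lower after centring or after rescaling without the 20 most abundant genes. Gsr, glutathione reductase, which regenerates reduced glutathione with NADPH, stood at 8.39 and 24.8 FPKM, a ratio of 2.96 (2.69 to 3.25). Gss, glutathione synthetase, which is not among the 10 genes and completes the synthesis after glutamate-cysteine ligase, stood at 25.04 and 43.2 FPKM, a ratio of 1.72 (1.61 to 1.85). The Gclc level was 4.98 (wild type) and 1.71 (knockout) times the Gsr level.

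The thioredoxin arm held the gene with the highest ratio of the 10. Srxn1, sulfiredoxin, which repairs overoxidised peroxiredoxins, stood at 5.84 FPKM (wild type) and 74.4 FPKM (knockout). It was 12.7-fold higher (11.5 to 14.1), on 436 and 5485 reads, and 99.4% of the tested genes had a lower ratio. Txnrd1, the cytosolic thioredoxin reductase, a selenoprotein, stood at 12.7 and 31.8 FPKM, a ratio of 2.51 (2.35 to 2.69). Per length, Srxn1 stood at 0.462 of the Txnrd1 level in the wild-type library and at 2.34 times that level in the knockout library. Both genes share the response element core with Gclm, whose ratio was near 1, but Txnrd1 held it in only 1 of its promoter windows. The start of Txnrd1 in use in these livers was not examined.

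Among the quinone and carbonyl reductases, 2 genes that were low in the wild-type library had high ratios. Nqo1, the NAD(P)H quinone reductase often used as a readout of NRF2, stood at 2.89 and 23.9 FPKM, a ratio of 8.28 (6.84 to 10.1). Cbr3, a carbonyl reductase, stood at 0.420 and 5.13 FPKM, with 13 and 157 reads. It passed the filter of 1 FPKM through the knockout library alone, so that it could pass only with a higher value there. Its ratio of 12.2 carries the widest interval of the 10 genes, 6.94 to 23.5. Akr1b8, an aldo-keto reductase that reduces reactive aldehydes, stood at 2.23 and 5.88 FPKM, a ratio of 2.64 (2.02 to 3.48), on 77 and 201 reads. The promoter windows of these 3 genes held neither motif. Reads of Akr1b8 may be divided with its paralogs: 2.90% of the 50-base words of its GENCODE transcripts also stood in those of other genes, Akr1b10 first. For Gclm this share was 4.58%, spread over 146 other genes, Gm17494 first. For Cbr3 it was 0.0797%, with Cbr1, and for the other 7 genes 0.

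Heme and growth-related targets were high in both libraries. Hmox1, heme oxygenase, which opens heme to biliverdin, iron and carbon monoxide and is also made by macrophages, stood at 29.5 and 100.2 FPKM, a ratio of 3.39 (3.18 to 3.62). Osgin1, an oxidative stress induced growth inhibitor, was the most abundant of the 10 genes in each library, at 138.2 and 442.0 FPKM. It was 3.20-fold higher (3.12 to 3.28), and its share of the summed FPKM was 48.4% (wild type) and 55.5% (knockout).

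**Figure D2:**
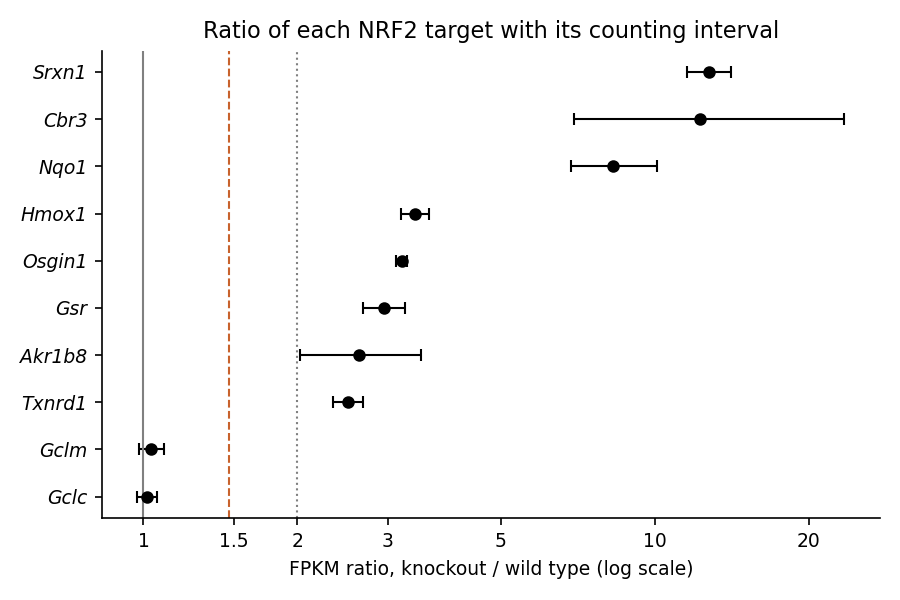
Plain FPKM ratio, knockout over wild type (log axis), for each of the 10 NRF2 targets, with exact 95% intervals of the read ratio as bars. The solid line marks 1, the dotted line the 2-fold size, and the dashed line the median of all tested genes on the log2(FPKM + 1) scale, 1.47-fold. Srxn1, Cbr3 and Nqo1 lie above the others, and Gclm and Gclc lie at 1.04 and 1.02.

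In the order of the plain ratios the genes formed 3 blocks. Srxn1, Cbr3 and Nqo1 stood first, at 12.7, 12.2 and 8.28. Hmox1, Osgin1, Gsr, Akr1b8 and Txnrd1 followed between 3.39 and 2.51, and Gclm and Gclc stood last. Of the 9 pairs of neighbours in this order, 7 had overlapping intervals. The intervals separated Nqo1 from Hmox1 and Txnrd1 from Gclm. The order of the levels also differed between the libraries. In the wild-type library Osgin1, Gclm and Gclc led, and Srxn1 stood seventh. In the knockout library Osgin1, Hmox1 and Srxn1 led, followed by Gclm and Gclc, whose intervals overlapped each other in both libraries.

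Regulators of NRF2 were then examined, 18 genes of a list of 20 (Bach2 and Palb2 were not analysed here). Of these, 7 were at least 2-fold higher and 0 were lower (4 and 0 once centred), with a median log2 ratio of 0.82, against 0.55 over all tested genes. The shares of all tested genes were 19.2% higher and 2.95% lower, or 5.67% and 6.66% once centred. Nfe2l2, which encodes NRF2, stood at 17.1 and 79.7 FPKM, a ratio of 4.66 (4.36 to 4.97). Sqstm1, an autophagy receptor that binds KEAP1 and is itself an NRF2 target, stood at 113.1 and 477.9 FPKM, a ratio of 4.22 (4.11 to 4.34). Keap1 stood at 9.91 and 12.1 FPKM, a ratio of 1.22 (1.13 to 1.32) and a log2 ratio of 0.26, below the median of all genes. The small MAF partners differed from each other. Maff was at 1.18 and 8.05 FPKM, a ratio of 6.85 (5.30 to 8.97), and Mafk at 2.04 and 7.61 FPKM, 3.73-fold higher (3.22 to 4.34). Mafg was at 5.08 and 7.65 FPKM, so that the 3 partners stood between 7.61 and 8.05 FPKM in the knockout library.

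Bach1, the repressor of Hmox1 and other targets, stood at 2.84 and 6.82 FPKM, a ratio of 2.40 (2.16 to 2.67). Within the KEAP1 ligase, Rbx1 stood at 19.8 and 47.1 FPKM, a ratio of 2.38 (2.20 to 2.58), and Cul3 at 7.48 and 12.3 FPKM, 1.64-fold higher (1.52 to 1.78). For the KEAP1-independent route, Gsk3b, the kinase that marks NRF2 for the ligase receptor β-TrCP, stood at 2.97 and 11.3 FPKM, a ratio of 3.79 (3.47 to 4.14). Btrc, which encodes that receptor, stood at 3.07 and 3.37 FPKM. Syvn1, an ubiquitin ligase of the endoplasmic reticulum, was the listed regulator with a lower value in the knockout library, at 24.4 and 22.0 FPKM. The other 7 genes, Nfe2l1, Crebbp, Ep300, Park7, Dpp3, Dcaf11 and Mafg, had log2 ratios between 0.45 (Park7) and 0.87 (Nfe2l1).

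**Figure D3:**
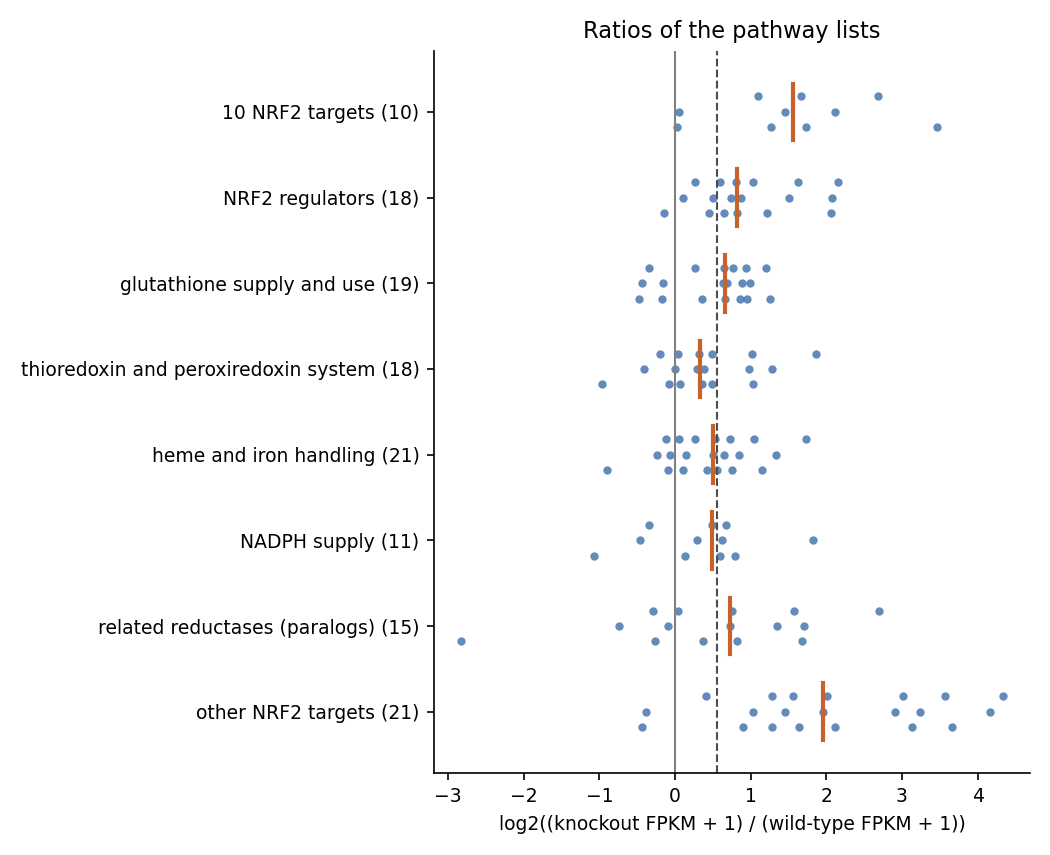
Log2 ratio, knockout over wild type on the log2(FPKM + 1) scale, of each tested gene in the 10 NRF2 targets and 7 related lists, with the number of tested genes in parentheses. Orange bars are list medians, the solid line is 0 and the dashed line is the median of all tested genes, 0.55. The medians of the 10 NRF2 targets (1.56) and of the other NRF2 targets (1.95) lie to the right of the rest.

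Lists of genes that work beside the glutathione and thioredoxin enzymes had medians closer to that of all genes. Their counts stand beside 19.2% of all tested genes at least 2-fold higher and 2.95% lower (5.67% and 6.66% once centred). For glutathione supply and use, 2 of 19 tested genes were at least 2-fold higher and 0 were lower (0 and 1 once centred), with a median log2 ratio of 0.66. Glrx3, a glutaredoxin of iron-sulfur handling, stood at 25.4 and 62.0 FPKM, and Slc3a2, the heavy chain of the cystine and other amino acid carriers, at 11.4 and 27.7 FPKM. Glrx, the cytosolic glutaredoxin, stood at 11.5 and 23.98 FPKM, and Mgst1, a membrane-bound glutathione transferase, at 355.7 and 564.3 FPKM. In the thioredoxin and peroxiredoxin system, 4 of 18 genes were at least 2-fold higher and 0 were lower (1 and 1 once centred), with a median of 0.33, below that of all genes. Txnip, an inhibitor of thioredoxin, stood at 24.6 and 92.2 FPKM, and Txnl1, a thioredoxin-like protein of the proteasome, at 15.6 and 39.5 FPKM. Prdx5, a peroxiredoxin, stood at 116.6 and 239.5 FPKM, and Selenop, the secreted selenium carrier, at 3381 and 3466 FPKM. Srxn1 thus stood 12.7-fold higher beside peroxiredoxin and thioredoxin genes whose median did not exceed that of all genes.

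Heme and iron handling genes had a median log2 ratio of 0.50, with 4 of 21 at least 2-fold higher and 0 lower (1 and 1 once centred). That count is near the 19.2% of all tested genes at least 2-fold higher, and the median is below the 0.55 of all tested genes. The 2 biliverdin reductases on the list differed. Blvrb stood at 59.7 and 200.7 FPKM, a ratio of 3.36 (3.16 to 3.57). Blvra stood at 5.59 and 7.83 FPKM, a ratio of 1.40 (1.16 to 1.69) and a log2 ratio of 0.42, below the median of all genes. Slc48a1, a heme transporter, stood at 14.4 and 38.0 FPKM, and Ftl1, the ferritin light chain, at 679 and 1503 FPKM. Hpx, hemopexin, the plasma heme carrier made by hepatocytes, stood at 4338 and 3675 FPKM. Of 11 NADPH supply genes from a list of 13 (Pgd and Nnt were not analysed here), 1 was at least 2-fold higher and 1 was lower (1 and 2 once centred), with a median of 0.49. Tkt, transketolase, stood at 15.8 and 58.6 FPKM, and G6pdx, the first enzyme of the pentose phosphate pathway, at 4.25 and 8.06 FPKM. The gene at least 2-fold lower was Hibadh, an enzyme of valine breakdown, at 65.7 and 30.8 FPKM, so this count does not describe the pentose phosphate enzymes. Idh2, the mitochondrial isocitrate dehydrogenase, stood at 56.3 and 69.2 FPKM.

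Relatives of the reductases lay on both sides. Of 15 tested genes 5 were at least 2-fold higher and 1 was lower (4 and 2 once centred), with a median log2 ratio of 0.73. Among the 5, Cbr2 passed the filter through the knockout library alone and could only be higher there. For this and the next list, the shares over all tested genes were 19.2% higher and 2.95% lower, or 5.67% and 6.66% once centred. Akr1b7, an aldo-keto reductase close to Akr1b8, stood at 17.8 and 120.4 FPKM, a ratio of 6.78 (6.21 to 7.40). Akr1c6, a hydroxysteroid dehydrogenase of hepatocytes, stood at 212.8 and 29.2 FPKM, 7.30-fold lower (6.84 to 7.79). Ptgr1, which reduces prostaglandins and unsaturated aldehydes, stood at 2.10 and 9.12 FPKM, and Akr1a1 at 182.9 and 309.6 FPKM. A list of other NRF2 targets, mostly conjugating enzymes and exporters, had 17 of 21 tested genes at least 2-fold higher and 0 lower (13 and 0 once centred), with a median of 1.95. Of the 17, 3 (Gsta1, Abcc4 and Aox1) passed the filter through the knockout library alone and could only be higher there. Gstm3, a glutathione transferase with close copies whose reads may be divided, stood at 5.47 and 129.3 FPKM, and Cyp2a5, a cytochrome P450, at 13.6 and 184.3 FPKM. These lists were drawn up with earlier results of these libraries known, and their counts are not independent evidence of a direction.

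**Figure D4:**
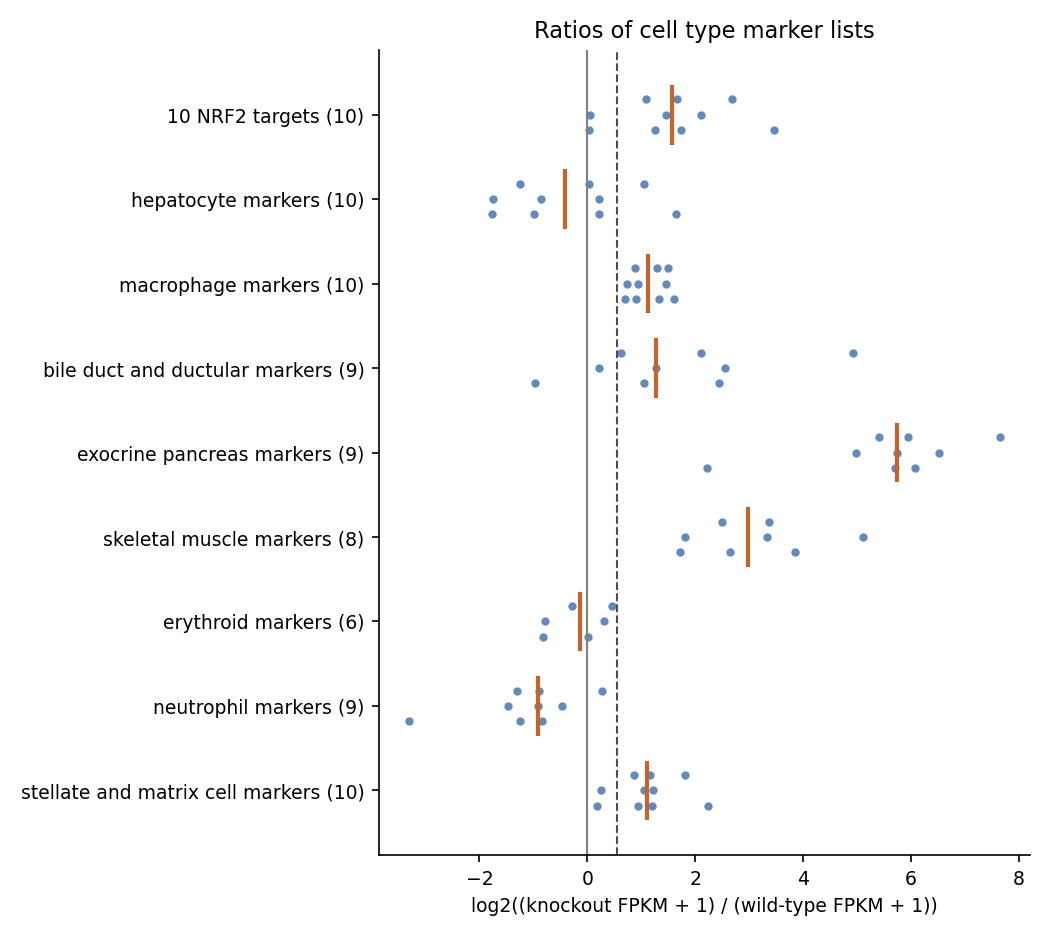
Log2 ratio, knockout over wild type on the log2(FPKM + 1) scale, of the 10 NRF2 targets and of markers of 8 cell types, with the number of tested genes in parentheses. Orange bars are medians, the solid line is 0 and the dashed line is the median of all tested genes. Exocrine pancreas and skeletal muscle markers lie farthest to the right and neutrophil markers farthest to the left.

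Summed levels of markers of several other cell types were also higher in the knockout library. The counts in this and the next paragraph stand beside 19.2% of all tested genes at least 2-fold higher and 2.95% lower. Once centred, these shares were 5.67% and 6.66%. Macrophage markers, whose cells also make Hmox1, were at least 2-fold higher for 5 of 10 tested genes and lower for 0 (1 and 0 once centred), and their summed level was 393 FPKM (wild type) and 989 FPKM (knockout), with 0 of the genes at 0 reads in either library. C1qb, a complement subunit of Kupffer cells, stood at 74.5 and 228.9 FPKM. Bile duct and ductular markers were at least 2-fold higher for 6 of 9 tested genes and lower for 0 (4 and 1 once centred), with sums of 57.6 and 173.6 FPKM. Krt19, a keratin of bile ducts, stood at 1.86 and 15.8 FPKM. Stellate and matrix cell markers were at least 2-fold higher for 6 of 10 and lower for 0 (2 and 0 once centred), with sums of 187.8 and 502.8 FPKM.

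Exocrine pancreas markers summed to 4.74 and 683.8 FPKM, and 3 of the 10 (Pnlip, Cel and Cpb1) were at 0 reads in the wild-type library. Skeletal muscle markers summed to 0.195 and 83.1 FPKM, with 6 of 10 (Acta1, Myh4, Myh8, Tnnc2, Actn3 and Mb) at 0 reads in the wild-type library. Of the tested markers, 8 of 9 for pancreas, 8 of 8 for muscle and 4 of 9 for bile duct passed the filter through the knockout library alone and could only be higher there. Hepatocyte markers summed to 77601 and 39331 FPKM, with 2 of 10 at least 2-fold higher and 3 lower (1 and 5 once centred). Erythroid markers, another source of heme enzymes, summed to 439 and 257 FPKM, with 0 of 6 tested genes at least 2-fold higher or lower (0 and 2 once centred), and Hbb-b1 at 0 reads in both libraries. Neutrophil markers summed to 243.0 and 114.4 FPKM, with 0 of 9 at least 2-fold higher and 4 lower (0 and 8 once centred). Of these 9, 2 (Mpo and Elane) passed the filter through the wild-type library alone and could only be lower in the knockout library. Another 1 passed through the knockout library alone. The part of these cell types in the values of the 10 NRF2 targets was not tested.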

How the data were processed

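RNA of 1 wild-type and 1 SRSF2 knockout library was grouped by the genotype in the labels. Each deposited table lists RefSeq accessions with a count of reads and an FPKM value, both computed by the authors, per the file headers. The submitters' processing notes name Bowtie 0.12.2 and the build mm9. The sources used here do not say how reads were counted, on which annotation, with or without strand, or what became of reads with several places. Reads of near-identical or antisense genes may therefore be divided in an unknown way.

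Accessions were named through a RefSeq gene table (GRCm38.p6) and GENCODE tables, 23419 of 26449, and summed per gene. The listed genes Bach2, Palb2, Mgst3, Pgd, Nnt, Cd68, Csf1r, Ahsp and Ly6g were not analysed here. Ratios are log2((knockout FPKM + 1) / (wild-type FPKM + 1)), with a pseudocount of 1 that understates low genes, for genes with at least 1 FPKM in either library, and genes were described by a 2-fold size rule. Printed folds are plain FPKM ratios. Their intervals are scaled by 1.01, the FPKM worth of 1 read in the knockout over the wild-type library. No p-value was computed. The text names all 10 NRF2 targets, Srsf2, all listed regulators and up to 4 genes of each other list (the most abundant, and the 3 whose log2 ratio lies farthest from 0). Other names were chosen after their values were seen. The members and lists were chosen with earlier results of these data known. The computation was tested on simulated libraries. Tools were matplotlib 3.10.9, scipy 1.17.1, pandas 2.3.3 and numpy 2.4.6 under Python 3.11.15.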

Additional observations from a re-analysis of the deposited data

How the results depend on the processing

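With 1 library per genotype, no replicate could be left out, and sampling between animals limits every value. No paired analysis was possible because each genotype had 1 library. The count of 8 of 10 genes at least 2-fold higher was 5 after centring on the median of all tested genes, 4 with plain ratios centred in the same way (an alternative chosen after seeing the data) and 3 with a size rule of 4-fold. It was 6 with a pseudocount of 5 or after rescaling without the 20 most abundant genes, and 8 with a pseudocount of 0.1, no filter, a filter of 5 FPKM, TPM, the highest accession, a 1.5-fold rule, a lower interval limit of at least 2, or a rescaling without pancreas and muscle markers, which shifts all genes alike (the last 2 chosen after seeing the data). The count of genes at least 2-fold lower was 0 in every alternative run. The median log2 ratio of 1.56 was 1.11 with a pseudocount of 5, 1.01 after centring and 1.26 without the 20 most abundant genes. Gclc and Gclm, which did not reach 2-fold, stood at -0.31 and -0.28 on the log2 scale without the 20 most abundant genes. For Cbr3, with 13 wild-type reads, depth limits the size of the ratio.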

Other observations

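The promoter letters were also compared with the ratios of all tested genes that have a RefSeq promoter, as a description with no test. The 1572 genes with the antioxidant response element core TGACNNNGC in a window had a median log2 ratio of 0.59, and the 7866 genes without it 0.54. Of them, 20.2% and 18.1% were past 2-fold in the higher direction. For the AP-1 letters TGANTCA, the 620 genes holding them had a median of 0.63 and the 8818 without them 0.54. Of these, 28.9% and 17.7% were past 2-fold in the higher direction, and 5.65% and 2.53% in the lower. For the 9 bases TGAGTCAGC shared by Srxn1 and Osgin1, 50 tested genes held them, with a median of 0.57. Of the 50, 26% were past 2-fold in the higher and 10% in the lower direction, against 18.4% and 2.69% of the 9388 genes without them. Srxn1 and Osgin1, from which the 9 bases were taken, are counted among the 50, and both were past 2-fold in the higher direction. The share of 26% is therefore not independent of that choice. A wider core, TGANNNNGC, stood in 41.3% of all windows. Counted by gene, 12174 of 27025 held it in a window, as did 5 of the 7 genes with a promoter entry. The 4511 tested genes holding it had a median of 0.56, and the 4927 without it 0.54.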
